A study of Mus musculus with 6 samples.

Results

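Havcr1-positive tubule nuclei are nuclei of the mouse kidney cortex that carried RNA of Havcr1, the gene of kidney injury molecule 1. They were chosen by their counts: a barcode needed 300 or more genes, and no more than 5% of its unique molecular identifiers (UMIs, each a counted RNA molecule) could be mitochondrial. It then had to hold 2 or more Havcr1 UMIs and 0 UMIs of Ptprc, Flt1, Nphs1, Slc12a3 and Top2a, which mark leukocytes, endothelium, podocytes, the distal convoluted tubule and dividing cells. This rule found 458 nuclei among 61939 nuclei that passed the barcode filter, out of 64442 deposited barcodes. Of these, 454 came from 3 knockout libraries and 4 from 3 control libraries.

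The nuclei were freed from stored cortex of FVB/N mice by a detergent lysis, and their RNA was counted on the 10x Chromium system. The knockout mice were Podocin-Cre Klf4 fl/fl, and the control mice were Klf4 fl/fl, so both groups carried the floxed alleles. Podocin-Cre is driven by a podocyte promoter, so the tubule nuclei described here are outside the cells in which the recombinase is meant to act. The labels used here give neither age nor sex, and name no treatment. They do not say whether each library was 1 mouse, so the spread between libraries may be partly technical.

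Havcr1 is a transmembrane protein that healthy tubules make at very low levels and that injured proximal tubule cells make in large amounts, where it lets them take up dying neighbours. Injured proximal tubule cells lose transporters and other genes of the mature segment while they dedifferentiate and repair. Cells that do not complete repair are described in mouse kidney by Vcam1, Dcdc2a, Ccl2 and NF-kB target genes.

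Havcr1-positive nuclei were more frequent in every knockout library than in any control library. They made up 363 of 22069 nuclei in knockout 1, 55 of 5082 in knockout 2 and 36 of 6064 in knockout 3, against 3 of 19645 in control 1, 0 of 3845 in control 2 and 1 of 5234 in control 3. As shares, these were 1.64% (exact 95% interval 1.48 to 1.82%), 1.08% (0.816 to 1.41%) and 0.594% (0.416 to 0.821%) in the knockout libraries. In the controls they were 0.0153% (0.0031 to 0.0446%), 0%, which allows a share of up to 0.078% by 3 counts, and 0.0191% (0.0005 to 0.106%). The intervals and this limit cover counting error only. Every knockout share lay above every control share, and knockout 1 gave 363 of the 454 knockout nuclei.

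The mean share was 1.11 ± 0.526% in knockout libraries and 0.0115 ± 0.0101% in control libraries (SD, n = 3 each), a difference of 1.10 percentage points. The two-sided exact permutation test gave p = 0.1, the smallest that 3 libraries against 3 allow, so the design could not pass 0.05. Without both libraries numbered 1 the difference was 0.828 percentage points. The level of Havcr1 over all nuclei, which the 2-UMI rule did not set, was 63.2, 37.1 and 19.9 CPM (UMIs scaled to an equal total for each library or class) in knockout libraries 1, 2 and 3, against 3.85, 3.07 and 3.19 CPM in the controls. The groups did not overlap. The means were 40.1 ± 21.8 CPM in knockout and 3.37 ± 0.421 CPM in control libraries (SD, n = 3 each), 11.9-fold higher in knockout libraries, again with an exact permutation p = 0.1. Over all nuclei of a library, more cells with Havcr1 RNA and more Havcr1 RNA per cell cannot be told apart.

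**Figure D1:**
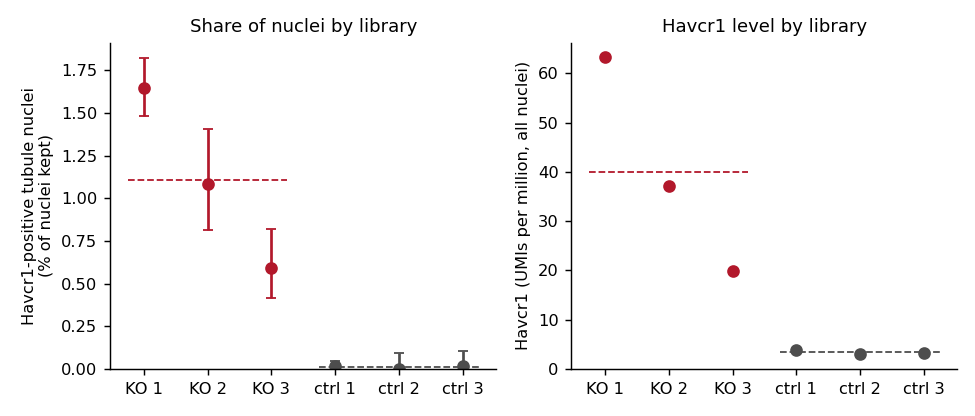
Left, Havcr1-positive tubule nuclei as a percent of the nuclei kept in each library (points, with exact 95% binomial intervals); right, Havcr1 CPM over all nuclei of each library. Dashed lines are group means over 3 libraries; the knockout (KO) shares of 0.594 to 1.64% lie above the control (ctrl) shares of 0 to 0.0191%.

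The threshold cut through a tail of low counts. Among nuclei with 0 UMIs of the 5 other genes, knockout 1 had 830 nuclei with 1 Havcr1 UMI, 178 with 2, 90 with 3 and 95 with 4 or more. Knockout 2 had 120, 27, 13 and 15 such nuclei, and knockout 3 had 71, 14, 14 and 8. Control libraries 1, 2 and 3 had 105, 11 and 24 nuclei with 1 UMI. The highest count in a nucleus was 13, 8 and 14 in knockouts 1, 2 and 3. A nucleus with 0 Havcr1 UMIs is therefore not shown to lack Havcr1 RNA.

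Free RNA can place UMIs in nuclei that do not make them, so endothelial and immune nuclei were counted at equal depth for comparison. Whether some of these make Havcr1 themselves was not tested. After each nucleus was thinned to 1000 UMIs, the first set was nuclei with 0 UMIs of the 5 genes of the rule and of endothelial and immune genes. In knockout 1, 131 of 11838 of them held 2 or more Havcr1 UMIs (1.11%, exact 95% interval 0.926 to 1.31%). In endothelial or immune nuclei, with 3 or more UMIs of their marker genes, the count was 1 of 537 (0.186%, 0.0047 to 1.03%). This second set had no condition on Slc12a3, Nphs1 or Top2a, so the sets were not chosen alike. Median depth before thinning was 1791 UMIs in the first set and 1652 in the second. In knockout 2 the counts were 24 of 2707 (0.887%) against 0 of 81, and in knockout 3 they were 12 of 2997 (0.400%) against 0 of 100. The upper bounds for these zeros, 4.45% and 3.62%, lay above the shares of the other nuclei, so a lower share was not detectable there. Without thinning, the first set held 3.45%, 1.59% and 1.13% in knockouts 1, 2 and 3, and endothelial or immune nuclei 0.931%, 1.23% and 0%. Barcodes with any Flt1 or Ptprc UMI reached 136 of 2384 (5.70%) in knockout 1 before thinning, at a median of 2216 UMIs.

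Depth, doublet marks and library differences moved with the chosen nuclei. Havcr1-positive nuclei had a median of 2344, 1374 and 2071.5 UMIs in knockouts 1, 2 and 3, against 1455.5, 1263 and 1387 in Havcr1-zero tubule nuclei. Havcr1-zero tubule nuclei passed the same barcode filter with 0 UMIs of Havcr1, of the 5 genes and of a panel of 14 other endothelial, stromal, podocyte and immune genes; Slc12a3 among the 5 was the one segment gene used. Barcodes with the highest doublet scores made up 27.0%, 3.64% and 5.56% of the Havcr1-positive nuclei, against 11.5%, 2.36% and 2.67% of Havcr1-zero tubule nuclei. Libraries numbered 1 in both groups stood apart, with 19645 to 22069 nuclei against 3845 to 6064 in the others, and with a median of 1.02 to 2.502% mitochondrial UMIs against 0.0851 to 0.162%. Libraries shared 5 to 121 barcodes in each pair, at most 1.40% of the smaller library, and 7, 1 and 0 Havcr1-positive nuclei of knockouts 1, 2 and 3 had a barcode seen elsewhere. Klf4, the deleted gene, had 0 UMIs in 113 knockout podocyte nuclei and 1 UMI in 113 control podocyte nuclei, too few to check the labels. It had 10, 1 and 0 UMIs in Havcr1-positive nuclei of knockouts 1, 2 and 3.

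Genes that set Havcr1-positive nuclei apart were tested against Havcr1-zero tubule nuclei of the same libraries, from UMIs summed per library and class. With 3, 0 and 1 such nuclei, the controls gave no test, so the 3 knockout libraries entered, with 454 and 17382 nuclei. Havcr1, the 5 genes and the panel were taken out of the table. With edgeR's quasi-likelihood test, library as a term and a Benjamini-Hochberg adjusted p of 0.05, 454 of 12226 genes were higher in Havcr1-positive nuclei (3.71%) and 627 were lower (5.13%). Without knockout 1 the counts were 215 higher and 390 lower, and without knockout 2 they were 295 higher and 146 lower; DESeq2 gave 258 higher and 180 lower, which turns the balance of directions. The median log2 fold change of all genes tested was -0.13.

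To compare like segments, both classes were also held to nuclei with 2 or more UMIs of Lrp2, the endocytic receptor megalin of the proximal tubule, and 0 UMIs of Slc12a1, the salt carrier of the thick ascending limb. This Lrp2 gate kept 103, 21 and 10 Havcr1-positive nuclei of knockouts 1, 2 and 3, and 6653 Havcr1-zero nuclei. Here 182 of 9946 genes were higher (1.83%) and 75 were lower (0.754%), and 241 genes were called in the same direction with and without the gate and 0 in opposite directions. Called genes depended on single libraries: without knockout 1 the counts were 46 higher and 61 lower, and without knockout 2 they were 98 higher and 2 lower. DESeq2 gave 88 higher and 2 lower.

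Set against the label of acutely injured tubule, markers of acute injury did not all move. Of 23 acute injury genes, 19 could be tested, of which 11 were higher and 1, the keratin Krt7, was lower, with a median log2 fold change of 1.05 against -0.13 for all genes. Without knockout 1, 4 of 18 were higher. Lcn2, the secreted lipocalin used as a marker of acute kidney injury, had 0 UMIs in all 454 nuclei. Havcr1-zero nuclei of knockouts 1, 2 and 3 had only 1.56, 0.57 and 0.48 CPM, and Lcn2 was not tested. Krt20, a keratin of injured tubules, had 28, 1 and 1 UMIs in Havcr1-positive nuclei of knockouts 1, 2 and 3, or 24.8, 9.25 and 11.5 CPM, against 1.61, 1.32 and 0.32 CPM in Havcr1-zero nuclei (edgeR log2 fold change 3.79, SE 0.64, adjusted p = 2.58e-07). Most Havcr1-positive nuclei thus gave no Krt20 UMI. Spp1, the injury-related secreted protein osteopontin, was at 177, 148 and 127 CPM against 173, 60.1 and 68.3 CPM and was not called (log2 fold change 0.35, edgeR adjusted p = 0.445). Cdkn1a, the cell cycle inhibitor p21, had 3, 1 and 0 UMIs, or 2.66, 9.25 and 0 CPM, against 2.53, 3.4 and 1.11 CPM, and was not tested.

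Annexins and a galectin led the injury list. Anxa3, a calcium-dependent membrane-binding protein, was at 153, 176 and 322 CPM in Havcr1-positive nuclei of knockouts 1, 2 and 3, against 18.3, 9.82 and 14.2 CPM in Havcr1-zero nuclei. The classes did not overlap, and the log2 fold change was 3.55 (SE 0.25, edgeR adjusted p = 1.4e-43). Anxa2, of the same family, was at 130, 92.5 and 184 CPM against 21.8, 15.1 and 20.9 CPM (log2 fold change 2.61). Lgals3, a galectin that binds cell-surface sugars, was at 45.2, 83.3 and 149.7 CPM against 13.6, 8.12 and 11.5 CPM (2.37). Sox9, a transcription factor of regenerating tubules, was at 29.2, 27.8 and 34.5 CPM, from 33, 3 and 3 UMIs, against 6.34, 6.99 and 2.71 CPM (log2 fold change 2.24, edgeR adjusted p = 4.68e-05); its call was lost without knockout 1.

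Nearly all listed genes of tubule cells that fail to repair were higher. Of 12 tested, 11 were higher and 0 lower, at a median log2 fold change of 1.84, and 10 of 11 were higher without knockout 1. Within the Lrp2 gate 10 of 11 were higher, at a median of 1.98, but 6 of 12 without knockout 2. The list was assembled with earlier results of these data known, so its direction is not independent evidence.

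Cd44, the hyaluronan receptor of injured epithelium, was at 352, 361 and 944 CPM in Havcr1-positive nuclei of knockouts 1, 2 and 3. Havcr1-zero tubule nuclei of the same libraries had 34.6, 28.3 and 24.5 CPM, and those of controls 1, 2 and 3 had 0.52, 3.23 and 4.17 CPM. The 3 sets of libraries did not overlap, and the log2 fold change within the knockouts was 3.88 (SE 0.20, edgeR adjusted p = 5.27e-78). Within the Lrp2 gate it was 3.76 (SE 0.27), a call that was lost without knockout 1. Cd44 lies on chromosome 2 from 102811141 to 102901665 on the minus strand (GENCODE M21, mm10).

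Kcnip4, a potassium channel-interacting protein, was at 1584, 1424 and 2038 CPM in Havcr1-positive nuclei, against 235, 165 and 129 CPM in Havcr1-zero nuclei of the knockouts and 14.96, 39.5 and 25.9 CPM in those of the controls. It was 8.57-fold higher (SE 0.18 on the log2 scale, edgeR adjusted p = 2.95e-60), with a log2 fold change of 3.03 within the Lrp2 gate. Vcam1, an adhesion molecule for leukocytes on chromosome 3 from 116109949 to 116129688, was at 275, 351 and 334 CPM, against 51.3, 31.9 and 21.5 CPM in the knockouts and 2.17, 0.72 and 1.28 CPM in the controls. Its log2 fold change was 2.94 (SE 0.21) and 3.22 within the gate. Dock10, a guanine nucleotide exchange factor, was at 522, 583 and 656 CPM against 126, 108 and 77.5 CPM (log2 fold change 2.31). For all of these the Havcr1-positive nuclei were above the Havcr1-zero nuclei in 3 of 3 libraries, and Kcnip4, Vcam1 and Dock10 were called under each of 9 alternatives with and without the gate.

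**Figure D2:**
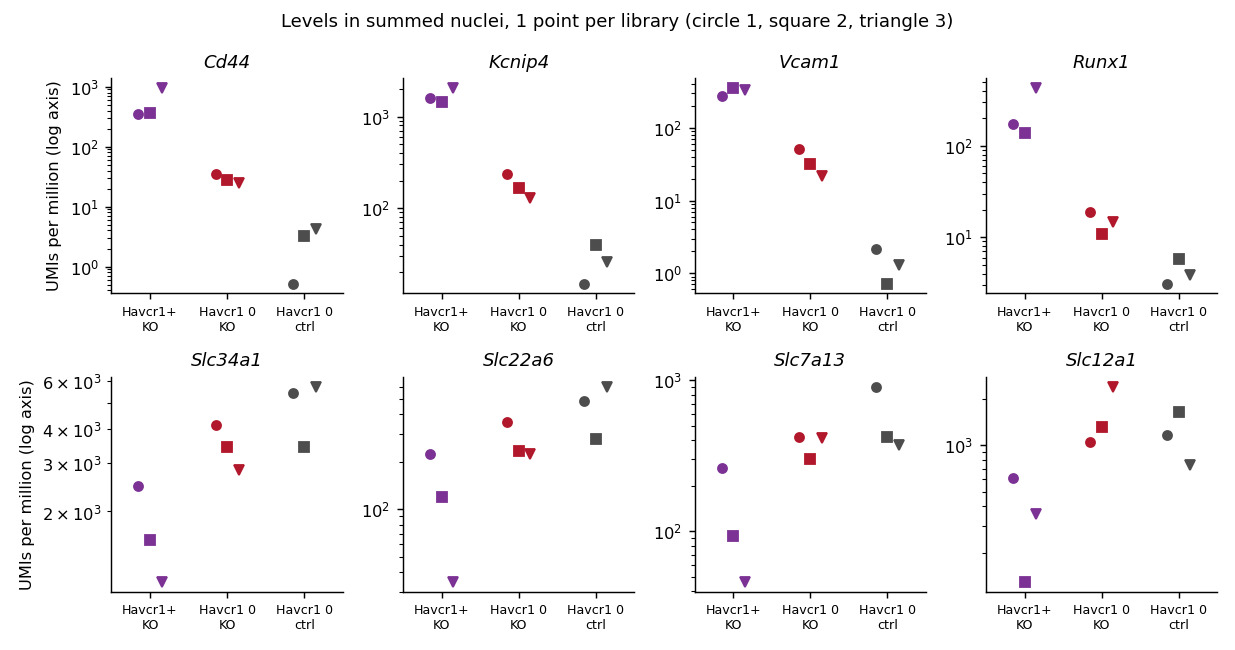
CPM (log axis) of 8 genes in Havcr1-positive tubule nuclei of the knockout (KO) libraries, Havcr1-zero tubule nuclei of the knockouts and Havcr1-zero tubule nuclei of the controls (ctrl), with 1 point per library. Cd44, Kcnip4, Vcam1 and Runx1 sit highest in Havcr1-positive nuclei, and Slc34a1, Slc22a6, Slc7a13 and Slc12a1 sit lowest there.

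At equal depth of 1000 UMIs, Kcnip4 was seen in 63.2%, 64.3% and 52.9% of Havcr1-positive nuclei of knockouts 1, 2 and 3, against 10.2%, 7.37% and 7.02% of Havcr1-zero nuclei. Cd44 was seen in 30.3%, 19.0% and 32.4% against 2.55%, 2.07% and 1.42%, and Vcam1 in 18.5%, 19.0% and 17.6% against 3.98%, 2.21% and 1.46%. At least 1 of the 3 genes was seen in 77.2%, 66.7% and 73.5% of 356, 42 and 34 Havcr1-positive nuclei, against 13.9%, 9.80% and 8.44% of Havcr1-zero nuclei. Thinning left out 7, 13 and 2 Havcr1-positive nuclei for having fewer UMIs. Without thinning, Cd44 was seen in 47.5% of the Havcr1-positive nuclei of knockout 1, against 3.82% of Havcr1-zero nuclei.

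The levels of these genes were also read by the number of Havcr1 UMIs, as a description without a test. Nuclei with 1 Havcr1 UMI, which the rule left out, had Cd44 at 192, 116 and 262 CPM in knockouts 1, 2 and 3, between the Havcr1-zero nuclei and the Havcr1-positive nuclei. In knockout 1, Cd44 was at 34.6, 192, 233, 404 and 528 CPM in nuclei with 0, 1, 2, 3 and 4 or more Havcr1 UMIs, and Slc34a1 at 4140.3, 3222, 2630.5, 2474 and 2182.1 CPM. Median depth over these steps was 1455.5, 1820.0, 2164, 2439 and 2553 UMIs. Knockouts 2 and 3 had 8 to 27 nuclei in each of the steps at 2, 3 and 4 or more UMIs. Cd44 was at 587, 245 and 135 CPM there in knockout 2, from 27, 8 and 4 UMIs, the opposite order to knockout 1, and at 347, 1479 and 833 CPM in knockout 3.

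**Figure D3:**
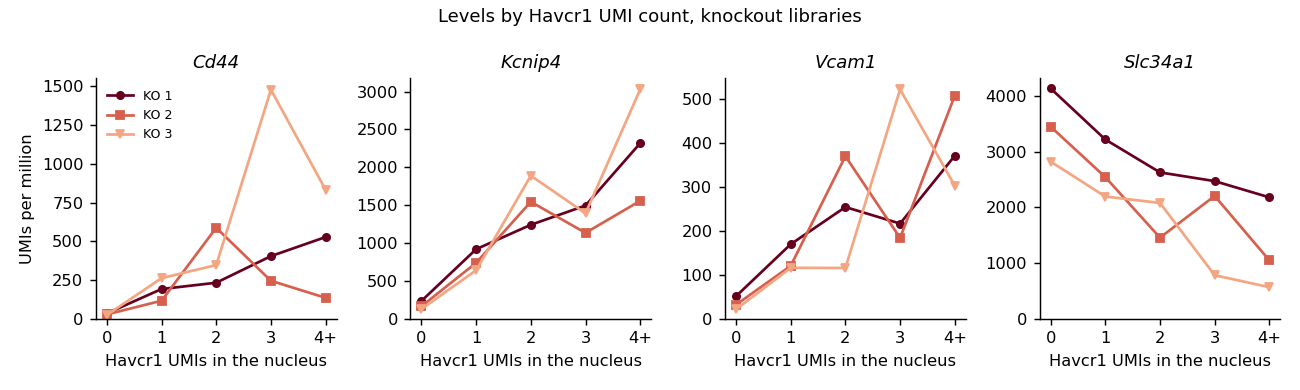
CPM of Cd44, Kcnip4, Vcam1 and Slc34a1 in nuclei with 0, 1, 2, 3 and 4 or more Havcr1 UMIs, with 1 line per knockout (KO) library. In knockout 1 Cd44 is at 34.6 CPM at 0 UMIs and 528 CPM at 4 or more, while Slc34a1 is at 4140.3 and 2182.1 CPM; the upper steps of knockouts 2 and 3 hold 8 to 27 nuclei each.

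A protease, an activin antagonist and transcription factors were among the genes with the smallest p. Plat, the tissue plasminogen activator, was at 152, 148 and 541 CPM in Havcr1-positive nuclei, against 21.2, 9.26 and 8.60 CPM in Havcr1-zero nuclei (log2 fold change 3.84). Runx1, a transcription factor of the Runt family, was at 171, 139 and 426 CPM against 19.0, 10.8 and 14.6 CPM (3.63). Creb5, a basic leucine zipper transcription factor, was at 277, 324 and 438 CPM against 37.9, 36.3 and 28.3 CPM, 8.55-fold higher. Fst, the activin antagonist follistatin, was at 112, 102 and 461 CPM against 17.2, 10.4 and 13.2 CPM (3.43). Vtcn1, an inhibitory member of the B7 family, was at 94.8, 64.8 and 127 CPM against 7.04, 4.53 and 3.34 CPM (3.93). Sytl2, a regulator of vesicle transport, had a log2 fold change of 2.54, and 3.74 within the Lrp2 gate. All 6 were higher in 3 of 3 libraries and called with edgeR both without and within the gate. For Plat, Fst and Runx1 knockout 3 was far above the other knockouts, on 47, 40 and 37 UMIs.

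Most NF-kB pathway and chemokine genes rose. Of 16 listed, 15 could be tested, of which 12 were higher and 0 lower, with a median log2 fold change of 1.67; without knockout 1, 11 of 14 were higher. Traf1, an adaptor of tumour necrosis factor receptors, was at 68.2, 46.3 and 46.1 CPM in Havcr1-positive nuclei against 6.24, 2.64 and 1.59 CPM in Havcr1-zero nuclei (log2 fold change 3.61). Birc3, an inhibitor of apoptosis, was at 244, 249.8 and 230.3 CPM against 62.9, 59.7 and 35.7 CPM (2.01). Nfkb1, which encodes the p50 subunit, was at 426, 490.2 and 921 CPM against 133, 152 and 134 CPM (1.88), and Relb, of the same family, was at 70.8, 92.5 and 115 CPM against 23.8, 23.0 and 17.0 CPM (1.77). The neutrophil chemokine Cxcl1 was at 155, 296 and 253 CPM against 65.2, 82.7 and 29.3 CPM (1.67). Within the gate 7 of 10 were higher, but without knockout 1 only 1 of 9, Nfkb1, was called there.

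Immune and endothelial markers were read in both classes. The summed level of the 10 immune genes was 117, 27.8 and 34.5 CPM in Havcr1-positive nuclei of knockouts 1, 2 and 3, against 72.5, 35.3 and 29.3 CPM in Havcr1-zero nuclei, with Ptprc at 0 by the rule. Of these 10 genes, 4, 8 and 8 were at 0 in Havcr1-positive nuclei. The summed level of the 8 endothelial genes was 61.1, 74.0 and 34.5 CPM against 9.03, 2.08 and 3.98 CPM. Havcr1-zero nuclei had 0 UMIs of the panel genes by choice and Havcr1-positive nuclei did not, so these sums were set in part by the choice. Where the panel was asked of both classes, the counts were 499 higher and 614 lower. The part of endothelial RNA in the results was not tested beyond this.

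Of 6 parietal epithelial genes tested, 4 were higher and 0 lower. They were Vcam1, Cldn1, Dcdc2a and Pax8, which injured tubules also make. Cldn1, a tight junction claudin, was at 42.5, 74.0 and 34.5 CPM, from 48, 8 and 3 UMIs, against 8.17, 6.80 and 3.82 CPM (log2 fold change 2.59). Pax8, a transcription factor of the whole nephron, was at 770, 1683 and 1175 CPM against 405, 759 and 483 CPM (log2 fold change 0.95, SE 0.17, edgeR adjusted p = 3.2e-06). Within the Lrp2 gate Pax8 was not called (log2 fold change 0.61, edgeR adjusted p = 0.16). The summed level of the 8 listed genes was 1265, 2516 and 1889 CPM against 570, 923 and 619 CPM. Whether parietal nuclei are among the Havcr1-positive nuclei was not tested. The podocyte list had 0 of 5 tested genes called in either direction.

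Immediate early and stress genes rose in part, with 6 of 12 higher and 0 lower, and 2 of 12 without knockout 1. Klf6, a zinc finger factor of the same family as Klf4, was at 173, 249.8 and 484 CPM against 52.4, 57.0 and 49.2 CPM (log2 fold change 2.14). Fosl1, an AP-1 subunit, was at 18.6, 9.25 and 69.1 CPM, from 21, 1 and 6 UMIs, against 3.33, 1.51 and 2.07 CPM (2.98). Fos and Jun were not called, at log2 fold changes of 0.06 and 0.28 and adjusted p of 0.98 and 0.66 from edgeR.

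AP-1, the dimer of Fos and Jun proteins, binds letters of the form TGANTCA, usually with C or G at N. The search took any base at N, so its matches include letters outside the usual AP-1 site. The letters TGANTCA, which read the same on both strands, were searched in the 300 bases from 250 before to 50 after each annotated RefSeq start (GRCm38.p6). They occurred at 9.05% of 442 starts of genes higher in Havcr1-positive nuclei and at 3.40% of 676 starts of genes lower there. The share was 5.02% over 11986 starts of all genes tested, and 7.81% over all 32851 starts searched. Of 117 genes named by rule, 90 were in the promoter table; 5 of 29 higher genes and 1 of 46 lower genes held the letters. The letters GGGNNTTCC, searched for NF-kB, occurred at 8.60%, 5.47% and 7.21% of starts of the higher, the lower and all tested genes. They are shorter than the usual NF-kB site and miss common forms of it, so these shares do not count NF-kB sites. The RUNX letters TGTGGT occurred at 11.3%, 11.5% and 12.1%, and the HNF4 letters CANAGTNCA at 4.52%, 6.80% and 3.55%. These are descriptions without a test, and a match is not a binding site. Starts of 1 gene overlap. The promoters below show Havcr1 itself at the third of its 3 annotated starts, the higher genes Kcnip4 and Creb5, and the lower gene Cyp4b1. The Havcr1 and Kcnip4 starts shown lie inside their genes. Havcr1 spans 46735080 to 46779578 on the plus strand, and Kcnip4 spans 48389502 to 49524907 on the minus strand. Each promoter has TGANTCA in capitals and is written 5′ to 3′ on the strand of the gene. These promoters were chosen after their values were seen.
Havcr1, chr11:46750918-46751217, plus strand: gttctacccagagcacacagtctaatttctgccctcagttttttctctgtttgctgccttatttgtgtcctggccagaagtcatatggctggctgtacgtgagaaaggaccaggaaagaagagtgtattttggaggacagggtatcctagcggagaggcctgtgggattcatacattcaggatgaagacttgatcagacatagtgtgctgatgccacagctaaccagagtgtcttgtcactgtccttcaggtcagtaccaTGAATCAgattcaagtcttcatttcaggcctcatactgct
Kcnip4, chr5:49285610-49285909, minus strand: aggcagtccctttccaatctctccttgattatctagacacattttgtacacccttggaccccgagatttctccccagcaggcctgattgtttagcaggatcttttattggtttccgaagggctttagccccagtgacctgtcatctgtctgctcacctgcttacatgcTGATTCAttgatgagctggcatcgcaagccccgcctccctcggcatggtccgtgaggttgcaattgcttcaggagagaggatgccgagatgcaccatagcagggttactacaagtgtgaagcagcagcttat
Creb5, chr6:53573124-53573423, plus strand: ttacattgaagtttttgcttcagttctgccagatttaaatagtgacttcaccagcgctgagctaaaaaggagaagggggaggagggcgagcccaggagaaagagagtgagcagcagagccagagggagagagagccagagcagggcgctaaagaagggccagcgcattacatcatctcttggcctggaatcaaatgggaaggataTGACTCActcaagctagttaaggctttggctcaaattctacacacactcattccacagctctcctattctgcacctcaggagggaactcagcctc
Cyp4b1, chr4:115647672-115647971, minus strand: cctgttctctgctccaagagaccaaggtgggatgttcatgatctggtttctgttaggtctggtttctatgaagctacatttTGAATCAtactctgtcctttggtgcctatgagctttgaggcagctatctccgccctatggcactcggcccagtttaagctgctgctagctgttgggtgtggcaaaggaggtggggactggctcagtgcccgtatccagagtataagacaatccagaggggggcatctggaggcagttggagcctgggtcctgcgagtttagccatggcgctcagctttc
The letters begin at base 11 after the start in Havcr1, and 82, 45 and 169 bases before the start in Kcnip4, Creb5 and Cyp4b1. In Havcr1 they thus lie within the transcript and overlap an ATG, so they are not shown to be a promoter element. Of the promoters shown, only that of Creb5 has C or G at N. The other 2 Havcr1 starts did not hold TGANTCA, and their NF-kB, RUNX and HNF4 letters are not given here.

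Matrix, integrin and actin genes were higher in 13 of 23 tested and lower in 0, with a median log2 fold change of 1.01. Actn1, the actin crosslinker alpha-actinin, was at 223, 222 and 714 CPM against 44.9, 48.9 and 47.8 CPM (log2 fold change 2.65, and 2.61 within the gate). Itgav and Itgb6, which together form an integrin that activates TGF-beta, were at 747, 758 and 1186 CPM against 376, 341 and 271 CPM (1.24), and at 902, 1045 and 1209 CPM against 365, 447 and 425 CPM (1.19). Myh9, non-muscle myosin, was at 398.5, 379 and 737 CPM against 174, 159 and 211 CPM (1.25). Fn1, Ctgf and Thbs1 were not called.

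Receptors that clear dying cells went in different directions. Mertk, a receptor tyrosine kinase of engulfment, was at 145, 111 and 46.1 CPM in Havcr1-positive nuclei against 227, 227 and 196 CPM in Havcr1-zero nuclei (log2 fold change -1.03). The scavenger receptor Cd36 was at 142, 240.5 and 11.5 CPM against 257, 341 and 239 CPM (-1.14), a call lost with DESeq2. Axl, a kinase of the same family as Mertk, was at 10.6, 27.8 and 104 CPM, from 12, 3 and 9 UMIs, against 4.68, 3.02 and 4.30 CPM (2.39), a call lost without knockout 3. Timd2, of the same gene family as Havcr1, was at 132, 185 and 219 CPM against 85.0, 76.9 and 65.3 CPM (0.92). Of 11 engulfment genes tested, 2 were higher and 2 lower. Within the Lrp2 gate 0 of 8 were higher and 2 lower. Mertk, 1 of these 2, was called there under 0 of 9 alternatives. Timd2 was not called within the gate (log2 fold change 0.73, edgeR adjusted p = 0.168).

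In the lists of cell cycle arrest and of division, 1 gene each was called higher and 0 lower. Over all genes tested 3.71% were higher and 5.13% lower, so lists this short cannot show a share below that. Of 8 p53 and arrest genes tested, 1 was higher, Mdm2, the ubiquitin ligase of p53, at 377, 370.0 and 242 CPM against 126, 107 and 125 CPM (log2 fold change 1.36). Of 15 division genes, 1 was higher, Diaph3, an actin nucleator, at 17.7, 92.5 and 150 CPM against 12.5, 24.4 and 20.2 CPM; that call was lost without knockout 2 or 3. The rule asked for 0 UMIs of Top2a and so bears on this list. Of 9 EGF receptor genes and ligands, Areg, amphiregulin, was higher at 41.6, 37.0 and 69.1 CPM against 5.43, 4.34 and 1.91 CPM (3.19), and Erbb4 and Egf were lower. Within the Lrp2 gate Erbb4 and Egf were not called (log2 fold change -0.34 and -0.69, edgeR adjusted p = 0.796 and 0.404).

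Most transport genes of the proximal tubule were lower. All 22 proximal tubule transport genes had negative log2 fold changes, 16 were called lower and 0 higher, and the median was -0.86 against -0.13 for all genes tested. Without knockout 1, 12 of 22 were lower, and without knockout 2, 8 of 22. Slc34a1, the sodium-phosphate cotransporter of the brush border on chromosome 13 from 55398187 to 55415592, was at 2475, 1572 and 1106 CPM in Havcr1-positive nuclei of knockouts 1, 2 and 3, against 4140.3, 3453 and 2825 CPM in Havcr1-zero nuclei of the knockouts and 5419, 3439 and 5719 CPM in those of the controls. The knockout classes did not overlap (log2 fold change -1.21, SE 0.18, edgeR adjusted p = 8.73e-10). At 1000 UMIs it was seen in 72.5%, 42.9% and 35.3% of Havcr1-positive nuclei against 90.1%, 83.8% and 74.3% of Havcr1-zero nuclei. Lrp2 was at 781, 1184 and 1013 CPM against 1159, 1919 and 2759 CPM (-1.03). These ranges overlapped between libraries, while each library had less in its Havcr1-positive nuclei. Cubn, its partner cubilin, was at 392, 240.5 and 230.3 CPM against 615, 412 and 391 CPM (-0.84), a call lost without knockout 2.

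By part of the proximal tubule, of 6 S1 genes 3 were lower, of 6 S2 genes 6 and of 8 S3 genes 6, with 0 higher in each. Of the S1 genes 0 were called without knockout 2, 5 without knockout 3 and 0 within the Lrp2 gate. Slc5a12, the S1 lactate carrier, was at 446, 259.0 and 127 CPM against 832, 640 and 173 CPM (log2 fold change -1.08, lost without knockout 2). Slc22a6, the organic anion transporter of S2, was at 223, 120.2 and 34.5 CPM against 356, 235 and 224 CPM (-1.09). Slc7a13, the cystine and glutamate transporter of S3, was at 263, 92.5 and 46.1 CPM against 419, 300.5 and 418 CPM (-1.38). Knockout 1 had the highest level of each of these 3 genes in its Havcr1-positive nuclei.

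Within the Lrp2 gate the same transport genes gave smaller and less certain differences. All 21 tested there were negative, 4 were called lower, and the median was -0.63 against -0.09 for all genes. Slc7a13 had a log2 fold change of -1.25 (SE 0.27, edgeR adjusted p = 0.000535) and Slc34a1 of -0.91 (SE 0.24, adjusted p = 0.0108). Slc22a6 and Cubn were not called within the gate (-0.83, edgeR adjusted p = 0.0801, and -0.60, adjusted p = 0.244). Without knockout 2, 0 of 21 were called. The gate asks for Lrp2 in both classes, so nuclei that had lost Lrp2 are not in it. None of the 25 genes named as lower within the gate was called under all 9 alternatives; G6pc, glucose-6-phosphatase of gluconeogenesis, was called under 8 of them (-1.48).

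Most transcription factors of the proximal tubule and some metabolic genes were lower where the Lrp2 gate was not applied. Of 10 transcription factors 7 were lower and 0 higher, but only 1 without knockout 2. Hnf4a, the nuclear receptor that maintains proximal tubule identity, was at 258, 296 and 219 CPM in Havcr1-positive nuclei against 417, 385 and 346 CPM in Havcr1-zero nuclei (log2 fold change -0.73, edgeR adjusted p = 0.0052), and its call was lost with DESeq2 and without knockout 1 or 2. Of 26 fatty acid oxidation genes 6 were lower and 0 higher, with a median of -0.61, but only 1 without knockout 2. Within the Lrp2 gate 2 of 10 transcription factors and 1 of 25 fatty acid oxidation genes were lower. Hnf4a was not called there (log2 fold change -0.53, edgeR adjusted p = 0.373). Pck1, of gluconeogenesis, was at 515, 213 and 149.7 CPM against 876, 597 and 309 CPM in the knockouts and 1197, 1702 and 1605 CPM in Havcr1-zero nuclei of the controls (-1.15). G6pc was at 80.6, 27.8 and 34.5 CPM against 151, 114 and 228 CPM in the knockouts (-1.38).

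**Figure D4:**
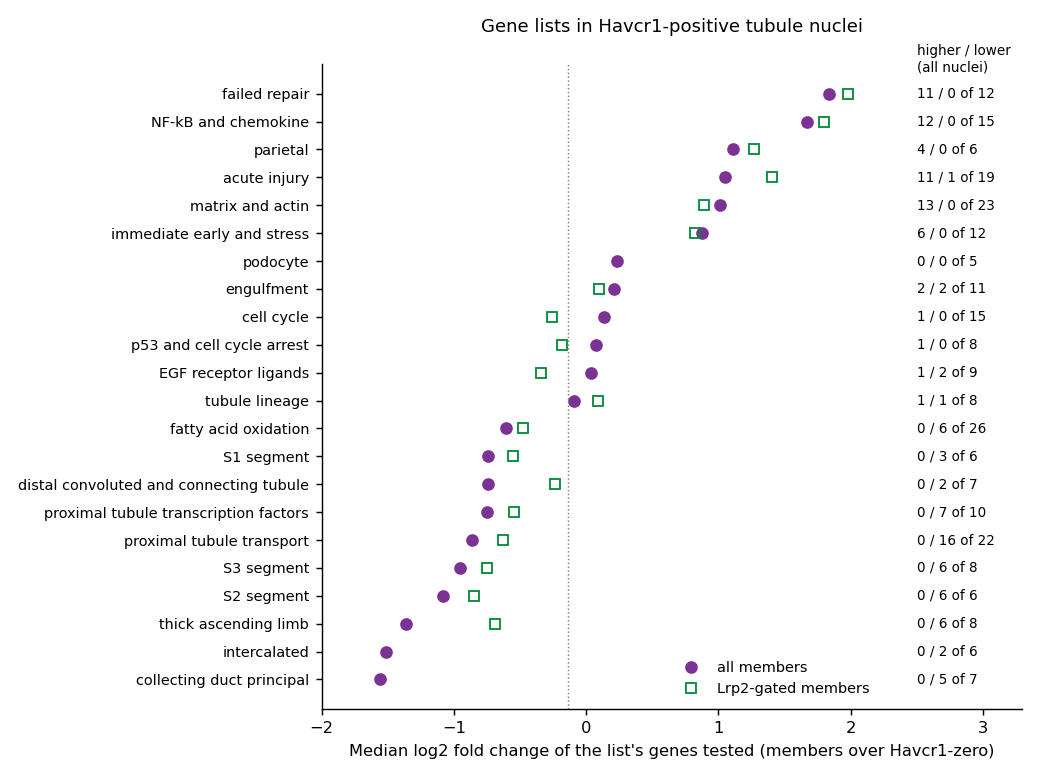
Median log2 fold change of each gene list with 5 or more genes tested, Havcr1-positive over Havcr1-zero tubule nuclei of the knockouts, for all nuclei (filled) and within the Lrp2 gate (open squares). Numbers at the right are genes called higher and lower of those tested, for all nuclei, and the dotted line at -0.13 is the median of all genes; failed repair genes lie at 1.84 and proximal tubule transport genes at -0.86.

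Genes of the distal nephron were lower in part. Of 8 thick ascending limb genes 6 were lower and 0 higher, and of 7 principal cell genes 5 were lower, but 0 of 7 with DESeq2 and 2 without knockout 1 or 2. Of 7 genes of the distal convoluted and connecting tubule 2 were lower, and of 6 intercalated cell genes 2, with 0 higher in each. Without knockout 3, 1 of 7 was lower, and without knockout 1, 0 of 6. Slc12a1 was at 608, 129.5 and 357 CPM in Havcr1-positive nuclei against 1047, 1320.1 and 2397 CPM in Havcr1-zero nuclei (log2 fold change -2.09, SE 0.20, edgeR adjusted p = 2.73e-23). Umod, the secreted uromodulin of the same segment, was at 227, 27.8 and 46.1 CPM against 403, 226 and 428 CPM (-1.59). Egf, made by distal tubule cells, was at 518, 83.3 and 69.1 CPM against 727, 891 and 982 CPM (-1.91). Aqp2, the water channel of principal cells, had 1, 0 and 0 UMIs in Havcr1-positive nuclei, against 13.5, 13.2 and 31.2 CPM. Slc4a1, the anion exchanger of intercalated cells, had 0 UMIs in all 3, against 1.56, 1.89 and 5.25 CPM in Havcr1-zero nuclei. It was not tested, and at so low a level 0 UMIs do not show a loss.

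Some Havcr1-positive nuclei also held UMIs of distal genes. At least 2 Slc12a1 UMIs were held by 49, 1 and 1 Havcr1-positive nuclei of knockouts 1, 2 and 3, and 1 or more UMIs of Slc26a4, the pendrin of intercalated cells, by 15, 1 and 1. In knockout 1, where 27.0% of these nuclei had a high doublet score, the part of doublets and free RNA in the Slc12a1 UMIs was not tested. The median of the thick ascending limb list was -1.36 and that of the proximal transport list -0.86, and these were not tested against each other. Since Havcr1-zero nuclei mix proximal and distal segments, with nuclei that held Slc12a3 left out, lower distal genes in each nucleus and a smaller share of distal nuclei among the Havcr1-positive nuclei cannot be told apart here.

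Some genes that led the list were also higher in Havcr1-zero tubule nuclei of the knockouts than in those of the controls. The 3 knockout levels did not overlap the 3 control levels for Cd44, Kcnip4, Vcam1, Dock10, Runx1 and Plat, all 6 above, where 10.9% of all genes tested lay above in this way. These 6 genes were chosen after their values were seen, and the plot of levels by library shows 4 of them. Dock10, for instance, was at 126, 108 and 77.5 CPM in Havcr1-zero nuclei of the knockouts and at 11.2, 22.3 and 16.9 CPM in those of the controls.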

How the data were processed

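Raw UMI counts per gene and barcode were deposited for 6 libraries. The file headers name Cell Ranger 3.1.0; the submitters' processing notes name mm10, and Seurat without a role. Classes were built from marker UMIs. The annotation release is not given in the sources used here. Medians were 1116 to 2123 UMIs per nucleus.

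UMIs were summed per library and class, where a library had at least 10 nuclei of the class. Sums were tested with the quasi-likelihood test of edgeR 4.0.16, with library as a term, TMM scaling and a filter on low counts, and with DESeq2 1.42.0 as an alternative. Standard errors (SE) are on the log2 scale. edgeR shares its estimate of the spread across genes, and the largest library carries most of the UMIs. Replicates are separate libraries, and no label says that they are separate animals. For genes, the library term takes out the level of each library. The p-values and SE of genes thus rest in part on a spread estimated across genes, not on that gene's 3 differences alone. A small p-value can go with a difference that varied widely between libraries. Slc12a1, for instance, was at 608, 129.5 and 357 CPM against 1047, 1320 and 2397 CPM, with an SE of 0.20. The p-values of shares rest on the spread between libraries. Shares were compared with exact permutation tests. Scores from Scrublet (scanpy 1.11.5) were used as an alternative only, with the highest 0.8% per 1000 barcodes removed, since its automatic threshold called 0 to 9 barcodes in a library. Promoters came from RefSeq (GRCm38.p6).

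The Havcr1 rule, the gene lists and the tests were chosen with earlier results of these data known. Genes are named by a rule: 21 given genes, up to 15 higher and 15 lower with the smallest p in each fit, and up to 4 called genes of a list; a few are not reported here. Libraries with the same number deviated together from their group means in Havcr1-zero tubule nuclei (r across 6705 genes of 0.656, 0.294 and 0.245), so the numbers were taken as pairs. Knockout 2 correlated better with control 3 (0.46), and knockout 3 with control 2 (0.306), so only the libraries numbered 1 match best by number. No label names a shared day or litter.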

Additional observations from a re-analysis of the deposited data

Results flagged for a closer look

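Barcodes with 2 or more Havcr1 UMIs that also held a UMI of Ptprc, Flt1, Nphs1, Slc12a3 or Top2a entered no comparison of genes, and were seen well above the control level. They numbered 309 in the knockout libraries (289, 11 and 9 in knockouts 1, 2 and 3) and 4 in the control libraries, all 4 in control 1. The shares were 1.31%, 0.216% and 0.148% of nuclei in knockouts 1, 2 and 3, against 0.0204%, 0% and 0% in the controls, without overlap. Slc12a3 was the commonest of the 5 genes in knockout 1, in 206 of 289 barcodes, followed by Flt1 in 116. A single UMI of the 5 genes set aside 144 of the 309. Their median depth was 4409, 3191 and 3948 UMIs. Cd44 was at 137, 465 and 112 CPM in them, and Kcnip4 at 626, 782 and 463 CPM.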

How the results depend on the processing

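Every knockout share lay above every control share under all settings tried. The difference was 3.1001 percentage points with 1 Havcr1 UMI, 1.65 without the condition on the 5 genes and 1.97 over tubule nuclei alone. It was 0.827 to 1.35 when each library was left out. With the replicate block it was 1.10 (paired differences 0.575 to 1.63, exact sign-flip p = 0.25, the smallest 3 pairs allow), which changed no call. Genes higher in Havcr1-positive nuclei numbered 258 with DESeq2 and 215 to 469 with a library left out; lower genes numbered 180 and 146 to 469. Within the Lrp2 gate higher genes numbered 88 with DESeq2, 46 to 160 with a library left out, 73 within the interquartile UMI range of Havcr1-positive nuclei, 109 with the panel asked of both classes and 84 with 3 Havcr1 UMIs. Lower genes there numbered 2 with DESeq2, 2 to 61 with a library left out, 4 in the UMI range, 145 without high doublet scores and 10 with 3 Havcr1 UMIs. In the UMI range, panel and 3-UMI settings knockout 3 had too few gated nuclei and was left out; otherwise the cause was not tested. The median log2 fold change of all genes was -0.13, and -0.43 without the filter on low counts. No named gene that was called changed sign, while some that were not called did, such as Kit and Erbb3 among all nuclei and Umod within the gate. Of named genes, 32 of 40 higher and 30 of 56 lower were called in all 9 alternatives, and within the gate 12 of 32 and 0 of 25. Tests of knockout against control within Havcr1-positive nuclei, and of its interaction with the class, were not run because the controls had 3, 0 and 1 such nuclei. For genes, using only knockout libraries is the main fit, and leaving out both libraries numbered 1 equals leaving out knockout 1. Depth limits low genes: at a median of 1374 to 2344 UMIs a nucleus with 0 UMIs of a gene may still make it.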
